A study of Mus musculus with 10 samples.

Results

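Genes of hepatic receptors that bind apoE-containing lipoproteins, and of proteins that act alongside these receptors, were examined in livers of mice carrying human APOE4 or human APOE3. The 7 genes considered were the receptors Lrp1, Vldlr and Scarb1, the proteoglycan Sdc1, the lipase Lipc, the receptor chaperone Lrpap1 and the receptor-degrading ligase Mylip. Members were all probe sets whose platform annotation gave exactly 1 gene symbol equal to a listed gene, whatever their level. This found 20 probe sets for 6 of the 7 genes among the 45101 on the array. Lipc, which encodes hepatic lipase, was named by no such probe set and was not analysed here. A probe set is a group of short probes that together read 1 transcript.

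The liver clears remnant lipoproteins, the particles left when lipases have removed triglyceride from chylomicrons and very-low-density lipoproteins. ApoE on these remnants binds heparan sulfate proteoglycans and receptors of the lipoprotein receptor family on hepatocytes, which internalise the whole particle. The apoE3 and apoE4 proteins are isoforms of this ligand.

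Total liver RNA was profiled with 1 one-colour array per animal in 5 APOE4 and 5 APOE3 female mice. The APOE4 mice were homozygous for the Apoetm3(APOE*4)Mae allele and the APOE3 mice for Apoetm2(APOE*3)Mae, both on a C57BL/6 background. In both genotypes the human sequence replaces the mouse Apoe gene and is driven by the murine Apoe promoter, so neither group makes mouse apoE and no mice with the mouse gene were included. All mice were 3 months old and ate a diet with 2 g/kg cholesterol and 41% of its energy from milk fat, for 6 weeks by the design text and 2 months by the growth protocol. Values were log2 GCRMA values, a normalized array intensity on a log2 scale, and values under about 4 lie near background. Because probe sets differ in their affinity, levels were compared between livers within a probe set and not between genes.

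The promoters of Lrp1, Vldlr and Lrpap1 are shown because Lrp1 and Vldlr varied in opposite directions between livers and Lrpap1 had the smallest p-value of the 6 genes. Each is 240 bases on the gene's own strand, 5′ to 3′, ending 10 bases before a RefSeq start site of GRCm38.p6. Capitals mark the GC box GGGCGG or its reverse complement CCGCCC, the motif of Sp1-type factors. The Lrp1 window lies at chr10:127621159-127621398 on the minus strand, the Vldlr window at chr19:27216234-27216473 on the plus strand and the Lrpap1 window at chr5:35105710-35105949 on the minus strand.
Lrp1: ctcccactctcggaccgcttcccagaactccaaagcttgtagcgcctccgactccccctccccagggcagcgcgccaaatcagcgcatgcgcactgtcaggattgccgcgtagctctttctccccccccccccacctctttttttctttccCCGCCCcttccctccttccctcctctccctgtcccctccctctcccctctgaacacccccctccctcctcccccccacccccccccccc
Vldlr: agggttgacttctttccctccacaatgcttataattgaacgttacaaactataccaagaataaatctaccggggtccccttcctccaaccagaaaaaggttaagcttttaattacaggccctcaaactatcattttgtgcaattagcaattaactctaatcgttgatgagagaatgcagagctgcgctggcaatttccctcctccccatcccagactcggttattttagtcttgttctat
Lrpap1: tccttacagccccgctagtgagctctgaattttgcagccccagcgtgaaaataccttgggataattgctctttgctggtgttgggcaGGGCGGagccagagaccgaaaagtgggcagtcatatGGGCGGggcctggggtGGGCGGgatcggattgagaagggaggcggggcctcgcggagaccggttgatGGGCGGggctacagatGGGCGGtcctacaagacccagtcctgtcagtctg

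The 3 windows differed in base composition. G and C made up 67.1% of the Lrp1 window, 41.25% of the Vldlr window and 60.8% of the Lrpap1 window, against a median of 52.1% over the 32851 promoter windows of the same length. The GC box occurred 5 times in the Lrpap1 window, 1 time in the Lrp1 window and 0 times in the Vldlr window, and 31.3% of all windows held it. A second Vldlr start site had a window with 65.4% G and C and 1 GC box. Sdc1 had 3 GC boxes, Mylip 1 and the Lipc windows 1 and 0. The E-box CACGTG, present in 5.69% of all windows, occurred in 0 of the 8 windows of Lrp1, Vldlr, Sdc1, Lipc, Lrpap1 and Mylip. The TATA box TATAAA, present in 12.1% of all windows, and the CCAAT box CCAAT, present in 33.0%, occurred 1 and 3 times in the Mylip window and 0 times in the windows printed above. The CCAAT box also occurred 1 time each in the second Vldlr window, the Sdc1 window and both Lipc windows. All 4 motifs were searched on both strands and counted whether or not they overlapped. A match or its absence describes the letters of the window only.

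Tissue markers read as for liver. Alb and Ttr, the hepatocyte genes of albumin and transthyretin, averaged 14.47 and 14.65 log2 over all arrays, and 7 of 8 hepatocyte markers were tested, the exception being Ass1 at 3.54. The single probe set of mouse Apoe lay between 0.996 and 1.19 log2 in APOE4 livers and between 0.960 and 1.12 in APOE3 livers, at background in both. Of the 8 Kupffer cell and macrophage markers, all tested, 1 difference was positive, 7 were negative and 0 passed. They summed to 12.16 to 13.25 log2 in APOE4 livers and 12.33 to 13.64 in APOE3 livers, and the top of the APOE3 range was replicate 4, in which the scavenger receptor gene Marco read 9.99 against at most 6.62 in any other liver. The cholangiocyte markers Krt19 and Krt7 averaged 2.66 and 2.03, at background. In whole liver, fewer cells of a type and less RNA per cell cannot be told apart.

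Of the 20 probe sets, 16 for 6 genes had a mean of at least 4 over all 10 arrays and were tested in the fit over all 14732 such probe sets. The tested set with the lowest mean, of Lrpap1, stood at 4.35, and the highest mean among those left out, also of Lrpap1, was 3.68. The other 3 left out were of Vldlr, and the 4 together read between 2.53 and 4.09 on any array. At an adjusted p under 0.05 in limma, 0 of the 16 differed between genotypes, where 0.0815% of all tested probe sets did. An unadjusted p under 0.05 was also reached by 0 of the 16, against 8% of all tested probe sets. In each of the 16 the genotypes overlapped, while they did not overlap in 2.02% of all tested probe sets. The adjusted p of the 16 ran from 0.634 to 0.999. Of the 16 differences, APOE4 minus APOE3, 7 were positive and 9 negative, and the second probe sets of Vldlr and Sdc1 turned negative when arrays were rescaled. With each gene taken by its brightest probe set, 2 of the 6 were positive, and 2 of the 6 under either rescaling. Their median was -0.04 log2, beside 0.05 over all tested probe sets.

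**Figure D1:**
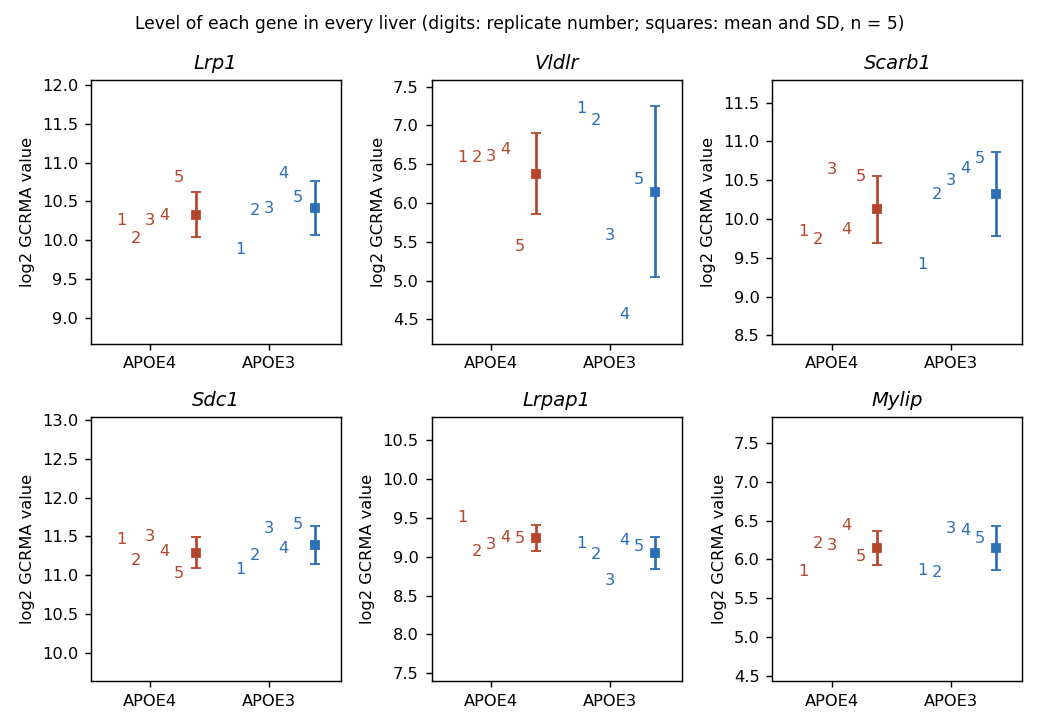
Log2 GCRMA value of each gene's highest-reading probe set in every liver, APOE4 left and APOE3 right, each digit giving the replicate number and squares with bars the mean and SD (n = 5); every panel spans the same log2 range. The genotypes overlap for all 6 genes, and Vldlr has the widest spread, with APOE3 replicate 4 at 4.56 and APOE3 replicate 1 at 7.22.

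Lrp1 encodes a large endocytic receptor that takes up apoE remnants and many other ligands in hepatocytes. It read 10.26, 10.02, 10.26, 10.32 and 10.80 log2 in the 5 APOE4 livers and 9.88, 10.38, 10.41, 10.85 and 10.55 in the 5 APOE3 livers. The lowest and the highest liver were both APOE3, and the APOE4 values lay between them. The means were 10.33 ± 0.29 in APOE4 and 10.41 ± 0.35 in APOE3 (SD, n = 5 each), a difference of -0.08 (SE 0.19, adjusted p = 0.93 in limma). As a fold this was 0.944, with a 95% interval from 0.710 to 1.25. A second, dimmer Lrp1 probe set averaged 6.25 ± 0.88 in APOE4 and 6.46 ± 0.85 in APOE3 (SD, n = 5 each), a difference of -0.21 (SE 0.47). It spanned 2.32 log2 over the 10 livers where the brighter one spanned 0.97. On both, APOE3 replicate 1 was the lowest liver and APOE3 replicate 4 the highest. Without APOE3 replicate 4 the differences became 0.03 and 0.07.

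Vldlr encodes the very-low-density lipoprotein receptor, which binds apoE and is known mainly for triglyceride-rich lipoprotein uptake in muscle, heart and fat. It read 6.59, 6.58, 6.60, 6.69 and 5.45 log2 in APOE4 livers and 7.22, 7.06, 5.58, 4.56 and 6.31 in APOE3 livers. In APOE4, 4 livers lay within 0.11 of each other and replicate 5 lay below them, while the APOE3 livers were spread on both sides. The means were 6.38 ± 0.52 in APOE4 and 6.15 ± 1.10 in APOE3 (SD, n = 5 each), a difference of 0.23 (SE 0.47, adjusted p = 0.92 in limma). Its 95% interval, from a fold of 0.577 to 2.40, was the widest of the 6 genes by their highest-reading probe sets. The other tested Vldlr probe sets differed by 0.02 (SE 0.41) and -0.03 (SE 0.32). All 3 had their lowest value in APOE3 replicate 4, and the SD within a genotype of the brightest exceeded that of 98.6% of all tested probe sets. Without that animal the 3 differences were -0.16, -0.36 and -0.25, with a lowest adjusted p of 0.78 in limma. APOE3 replicate 4 was also the liver with the highest Kupffer cell marker sum given above. APOE4 replicate 5, next lowest on the brightest Vldlr probe set, had the lowest Kupffer cell marker sum, at 12.16. Apart from the correlation given below, the part of these cells in the Vldlr values was not tested.

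Scarb1 encodes scavenger receptor class B type I, which takes cholesteryl esters from high-density lipoproteins and can bind apoE particles. It read 9.84, 9.74, 10.64, 9.87 and 10.55 log2 in APOE4 livers and 9.41, 10.31, 10.50, 10.65 and 10.78 in APOE3 livers. In APOE4, replicates 3 and 5 were high and the other 3 low, and in APOE3, replicate 1 alone was low. The means were 10.13 ± 0.43 in APOE4 and 10.33 ± 0.54 in APOE3 (SD, n = 5 each), a difference of -0.20 (SE 0.27, adjusted p = 0.87 in limma). The 95% interval ran from a fold of 0.575 to 1.32. The other Scarb1 probe sets differed by -0.10 (SE 0.28) and -0.23 (SE 0.25), and all 3 differences were negative. With 1 animal left out, the difference of the brightest ran from -0.43 without APOE3 replicate 1 (adjusted p = 0.47 in limma) to -0.09 without APOE3 replicate 5.

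Sdc1 encodes syndecan-1, a membrane proteoglycan whose heparan sulfate chains capture remnants at the hepatocyte surface. It read 11.46, 11.19, 11.50, 11.30 and 11.02 log2 in APOE4 livers and 11.07, 11.26, 11.60, 11.35 and 11.66 in APOE3 livers. All 10 livers lay within 0.64 log2, the narrowest span of the 4 Sdc1 probe sets. The means were 11.29 ± 0.20 in APOE4 and 11.39 ± 0.24 in APOE3 (SD, n = 5 each), a difference of -0.09 (SE 0.14, adjusted p = 0.88 in limma). The 95% interval ran from a fold of 0.759 to 1.16. The 3 dimmer probe sets differed by 0.02 (SE 0.16), -0.04 (SE 0.17) and 0.27 (SE 0.25), so the 4 did not share a direction. Syndecan-1 is also made by bile duct and plasma cells, whose markers Krt19, Krt7 and Mzb1 averaged 2.66, 2.03 and 2.41 here. Jchain, another plasma cell gene, read 6.13 in APOE4 replicate 1 and 4.57 in APOE3 replicate 4, and at most 3.28 in the other livers. The 4 cholangiocyte markers on the array summed to 4.91 to 5.24 log2 in APOE4 livers and 4.83 to 5.26 in APOE3 livers, with 0 of them tested. The 6 lymphocyte and plasma cell markers summed to 7.07 to 8.56 in APOE4 livers and 7.12 to 9.14 in APOE3 livers, with 1 tested. That marker was Ptprc, at a mean of 7.58, while the others averaged between 2.21 and 3.50. The sum therefore mostly reads Ptprc and describes plasma cells little.

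Lrpap1 encodes the receptor-associated protein, an endoplasmic reticulum chaperone that keeps Lrp1 and its relatives from binding ligands before they reach the surface. It read 9.51, 9.07, 9.16, 9.25 and 9.24 log2 in APOE4 livers and 9.18, 9.03, 8.70, 9.22 and 9.13 in APOE3 livers. In APOE4, 3 livers exceeded every APOE3 liver, and in APOE3, replicates 2 and 3 fell below every APOE4 liver. The means were 9.25 ± 0.16 in APOE4 and 9.05 ± 0.21 in APOE3 (SD, n = 5 each), a difference of 0.20 (SE 0.12, adjusted p = 0.71 in limma). A second probe set read 8.93, 8.39, 8.38, 8.66 and 8.56 in APOE4 livers and 8.41, 8.21, 8.03, 8.47 and 8.42 in APOE3 livers. Its difference of 0.28 (SE 0.13) had the smallest p of the 16, 0.058 unadjusted and 0.63 adjusted in limma. The 95% interval ran from a fold of 0.993 to 1.48. The third, near background at 4.41 in APOE4 and 4.29 in APOE3, differed by 0.12 (SE 0.15). Of the 6 genes by their highest-reading probe sets, Lrpap1 had the smallest SD within a genotype, above that of 33.6% of all tested probe sets.

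Mylip encodes an E3 ubiquitin ligase, induced by liver X receptors, that marks lipoprotein receptors including Vldlr for degradation. It read 5.85, 6.21, 6.19, 6.44 and 6.04 log2 in APOE4 livers and 5.86, 5.83, 6.40, 6.37 and 6.27 in APOE3 livers. The genotypes covered almost the same span. Both means were 6.14, with an SD of 0.22 in APOE4 and 0.28 in APOE3 (n = 5 each), a difference of -0.0007 (SE 0.15, adjusted p = 0.999 in limma). The 95% interval ran from a fold of 0.793 to 1.26. Mylip had 1 probe set, so no other reading could be set beside it.

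**Figure D2:**
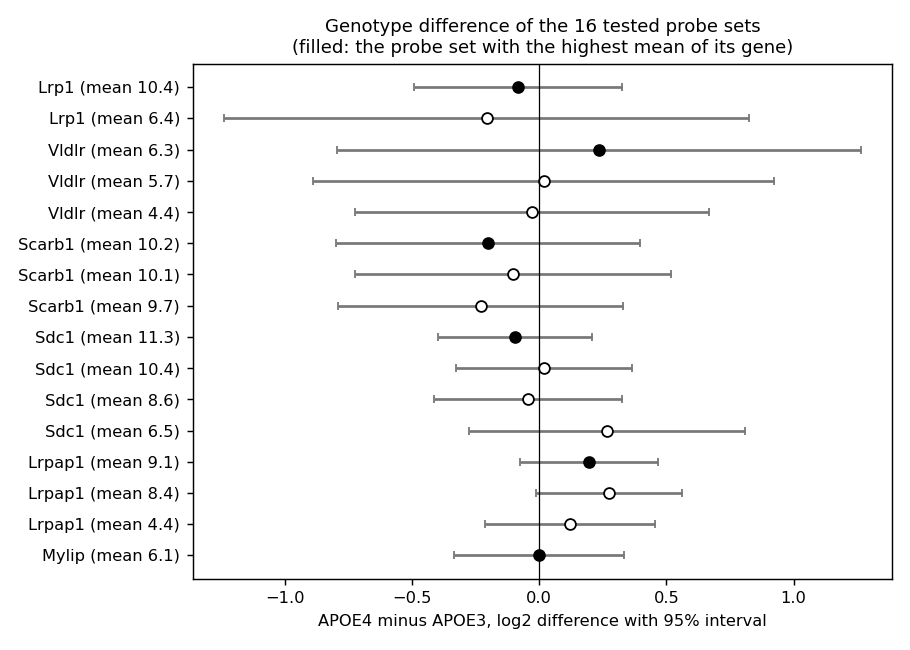
Log2 difference, APOE4 minus APOE3, of the 16 tested probe sets with 95% intervals from limma; each row is a probe set with its mean log2 value in brackets, and filled points mark the highest-reading probe set of each gene. All 16 intervals include 0, and the widest, those of the dimmer Lrp1 probe set and of the Vldlr probe sets, pass 0.6 log2 on both sides.

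By the brightest probe sets, the SD within a genotype exceeded the difference between genotypes for Lrp1, Vldlr, Scarb1, Sdc1 and Mylip, and for Lrpap1 the 2 were 0.19 and 0.20. The probe sets of Vldlr and of Scarb1 traced nearly the same pattern over the livers. The brightest probe sets of Vldlr, Scarb1 and Sdc1 carry the array maker's mark for probes that may also bind other transcripts. To describe this, each probe set was standardised over the 10 livers and the root mean square distance between patterns was taken, which is 0 for the same pattern, 1.34 for patterns with no linear relation and 1.90 for opposite patterns. The other tested probe sets of Vldlr lay at 0.196 and 0.270 from the brightest, and those of Scarb1 at 0.133 and 0.201. The Lrpap1 probe set at 8.45 lay at 0.290 from the brightest, while the one near background lay at 1.59. Those of Sdc1 lay between 0.588 and 0.799 and that of Lrp1 at 0.582.

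**Figure D3:**
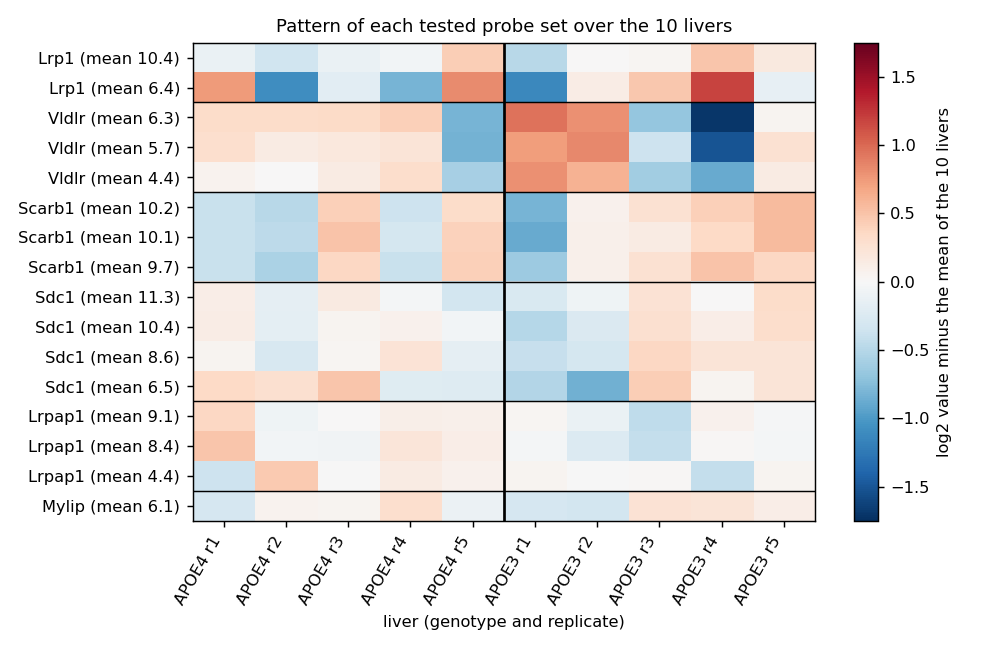
Log2 value minus the mean of the 10 livers for the 16 tested probe sets (rows, with the mean in brackets) in every liver (columns, APOE4 left of the line and APOE3 right). The 3 Vldlr rows are lowest in APOE3 replicate 4, where both Lrp1 rows are highest, and the 3 Scarb1 rows are lowest in APOE3 replicate 1.

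Between genes, livers with more Lrp1 transcript had less Vldlr and more Scarb1. All 15 pairs of the 6 genes were compared by their highest-reading probe sets over the 10 livers, with two-sided permutation tests adjusted over the pairs. Lrp1 and Vldlr had a Pearson r of -0.82 (permutation p = 0.0031, adjusted p = 0.037, n = 10) and a Spearman rho of -0.76 (permutation p = 0.015, adjusted p = 0.11). Lrp1 and Scarb1 had an r of 0.79 (permutation p = 0.0050, adjusted p = 0.037, n = 10) and a rho of 0.77 (permutation p = 0.013, adjusted p = 0.11). So 2 of the 15 pairs passed by Pearson's r and 0 by Spearman's rho. Vldlr and Scarb1 had an r of -0.61 (permutation p = 0.058, adjusted p = 0.29) and a rho of -0.61 (permutation p = 0.066, adjusted p = 0.33). Deviations from the genotype means gave -0.82 for Lrp1 and Vldlr and 0.79 for Lrp1 and Scarb1 (permutation, adjusted p = 0.042 for each). The deviations were permuted over all 10 livers without regard to genotype or to the means removed, so this p may be too small.

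Without the 2 livers farthest from the median of Lrp1, which left 8 livers and a narrower span of Lrp1, r was -0.64 with Vldlr (permutation p = 0.089) and 0.66 with Scarb1 (permutation p = 0.067), so neither relation held at 0.05 without those livers. Leaving out 1 animal kept r between -0.88 and -0.74 for Lrp1 and Vldlr, but ended the call without APOE4 replicates 1, 2, 4 or 5 or APOE3 replicates 1 or 4 (permutation, adjusted p from 0.051 to 0.18). For Lrp1 and Scarb1, r stayed between 0.69 and 0.89, and the call was lost in all of these fits but that without APOE4 replicate 3 (permutation, adjusted p from 0.060 to 0.32). Over all combinations of tested probe sets, r ran from -0.82 to -0.67 for Lrp1 and Vldlr, from 0.59 to 0.84 for Lrp1 and Scarb1 and from -0.68 to -0.48 for Vldlr and Scarb1. Without APOE3 replicate 4, the liver with the most Kupffer cell marker signal, r was -0.74 for Lrp1 and Vldlr (permutation, adjusted p = 0.18) and 0.78 for Lrp1 and Scarb1 (permutation, adjusted p = 0.14). No batch or scan order is given in the labels, so these relations were not recomputed within batches.

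The same livers also differed in hepatocyte marker signal. The 8 hepatocyte markers summed to between 16.42 and 16.53 log2 in APOE4 livers and between 16.40 and 16.59 in APOE3 livers, a narrow span. Over the 10 livers this sum had an r of 0.79 with Lrp1 (permutation p = 0.0067, adjusted p = 0.013) and a rho of 0.84 (permutation p = 0.0038, adjusted p = 0.021). With Vldlr it had an r of -0.84 (permutation p = 0.0019, adjusted p = 0.011) and a rho of -0.77 (permutation p = 0.013, adjusted p = 0.025). With Scarb1 it had an r of 0.81 (permutation p = 0.0055, adjusted p = 0.013) and a rho of 0.81 (permutation p = 0.0071, adjusted p = 0.021). Without the 2 livers farthest from the median of the sum, r was 0.92 for Lrp1 (permutation p = 0.0014), -0.78 for Vldlr (permutation p = 0.015) and 0.90 for Scarb1 (permutation p = 0.0030). Leaving out 1 animal ended the call for Lrp1 without APOE3 replicates 1 or 4 and for Scarb1 without APOE3 replicate 1, with r of at least 0.72 and 0.75 over all 10 omissions. Only Lrp1, Vldlr and Scarb1 were set against marker sums, after their own relations had been seen. Because these genes varied together, their relations with the sum are not independent, and the adjusted p does not count that choice. Sdc1, Lrpap1 and Mylip were not compared with the sum.

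The hepatocyte markers did not move as 1. The sum was taken on unlogged values, so the highest-reading markers, Alb and Ttr, weighed most in it. Alb had an r of 0.42 with Lrp1, -0.50 with Vldlr and -0.04 with Scarb1, and Ttr had -0.18, -0.07 and -0.40. Over the 8 hepatocyte markers, r with Scarb1 ran from -0.40 for Ttr to 0.91 for Cps1, a urea cycle enzyme, with 6 of 8 positive. With Lrp1, 7 of 8 were positive (r from -0.18 to 0.82), and with Vldlr 0 of 8 (r from -0.85 to -0.07). This split of signs was not particular to hepatocyte markers. Of the 8 Kupffer cell and macrophage markers, 8 were positive with Lrp1 (r from 0.06 to 0.51). With Vldlr 0 of them were positive (r from -0.49 to -0.06), and with Scarb1 2 (r from -0.22 to 0.27). The Kupffer cell marker sum had an r of 0.27 with Lrp1, -0.34 with Vldlr and -0.05 with Scarb1 and a rho of 0.19, 0.04 and -0.10 (permutation, adjusted p of 0.51 or more over the 6 relations with both sums). The part of hepatocyte content or state in the relations of Lrp1, Vldlr and Scarb1 was not tested.

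**Figure D4:**
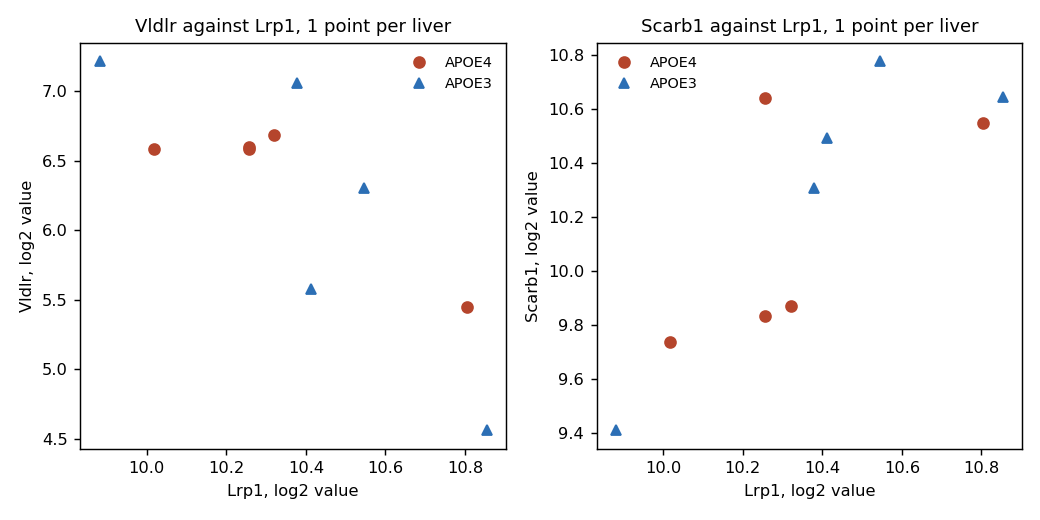
Log2 value of Vldlr (left) and Scarb1 (right) against that of Lrp1, 1 point per liver, APOE4 as circles and APOE3 as triangles. Vldlr falls and Scarb1 rises with Lrp1 over the 10 livers, with r of -0.82 and 0.79, and APOE3 replicates 1 and 4 lie at the 2 ends of the Lrp1 axis.

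By the same distance over 10 livers, the 2 genes most like each member were found among 8534 others, a description that names close patterns whatever their origin. They were Ablim3 at 0.268 and B4galnt1 at 0.309 for Lrp1, and Eef1akmt2 at 0.244 and Snrpe at 0.308 for Vldlr. For Scarb1 they were Nrbp2 at 0.305 and Abcd4 at 0.338, and for Sdc1 they were Srsf3 at 0.405 and Bod1l at 0.451. Lrpap1 was nearest to Fnbp1 at 0.360 and Pgap6 at 0.374. Mylip was nearest to 4833411C07Rik at 0.455 and Mtarc1 at 0.474. Snrpe spanned little, from 10.72 to 10.90 in APOE4 livers and from 10.52 to 10.90 in APOE3 livers, so its nearness to Vldlr is in shape and not in size. Ablim3, like Lrp1, was highest in APOE4 replicate 5 and APOE3 replicate 4, at 7.99 and 7.64.

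The wider pathway of receptor-mediated lipoprotein uptake was described from 89 genes listed by role. Of these, 81 were named on the array and 66 passed the filter, with 108 tested probe sets. After adjustment, 0 of the 108 rose and 0 fell in APOE4. An unadjusted p under 0.05 was reached by 7, 4 higher and 3 lower, which is 6.48% against 8% of all tested probe sets. By the highest-reading probe set, 42 of the 66 genes were positive and 24 negative, but 32 and 34 after renewed quantile normalization and 31 and 35 with arrays centred. Their median of 0.03 log2 stood beside 0.05 over all tested probe sets, 60.9% of which were positive. Counts by role below use the highest-reading probe set, while each named gene is given by its probe set with the smallest p, which favours large differences.

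Genes that build or trim heparan sulfate held 3 of those 7 probe sets, which is 3 of the 22 tested in this role (13.6%, against 8% of all tested probe sets), and 2 of the 3 were of Sulf2. Sulf2, an extracellular sulfatase that removes sulfate groups from heparan sulfate, read 6.53, 6.96, 6.65, 6.31 and 6.25 log2 in APOE4 livers and 7.24, 6.89, 7.13, 6.76 and 7.33 in APOE3 livers. The genotypes overlapped in 1 APOE4 liver, replicate 2, which lay above 2 APOE3 livers. The difference was -0.53 (SE 0.16, unadjusted p = 0.0062, adjusted p = 0.50 in limma). A dimmer Sulf2 probe set was at -0.55 (SE 0.20), but another was at 0.23 (SE 0.14), so the probe sets disagreed in sign. Glce, the epimerase that forms iduronic acid in the chain, read 7.96 ± 0.19 in APOE4 and 7.61 ± 0.21 in APOE3 (SD, n = 5 each), a difference of 0.35 (SE 0.13, adjusted p = 0.58 in limma). Extl3, which takes part in the start of chain growth, differed by 0.16 (SE 0.11). Of the 16 tested genes in this role 7 were positive and 9 negative, with a median of -0.01, and the counts were the same under both rescalings.

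No proteoglycan or receptor on the lists passed. Among syndecans and glypicans, 3 of 4 tested genes were positive, but 1 after either rescaling. Gpc4, glypican-4, read 8.36 ± 0.21 in APOE4 and 8.07 ± 0.13 in APOE3 (SD, n = 5 each), a difference of 0.29 (SE 0.12, adjusted p = 0.58 in limma). Sdc2 was at 0.22 (SE 0.18) and Sdc4 at 0.13 (SE 0.23), with the brightest Sdc2 probe set at 0.03 and that of Sdc4 at -0.01. The list of the lipoprotein receptor family also held the sorting receptor genes Sort1 and Sorl1. On it, 5 of 6 tested genes were positive, but 3 after either rescaling. The negative gene was Sort1, at -0.23 (SE 0.13) by a probe set near background, with a mean of 4.22, and at -0.15 (SE 0.13) by its brightest. Lrp12, also near background with a mean of 4.02, was at 0.10 (SE 0.13) and the Wnt co-receptor Lrp6 at 0.09 (SE 0.13). Among scavenger receptors, listed together with the receptor gene Cd320, 4 of 6 were positive, but 3 after either rescaling. Stab1 was at 0.10 (SE 0.10), Scarb2, a lysosomal membrane protein, at 0.11 (SE 0.11), and the fatty acid transporter Cd36 at 0.24 (SE 0.39). The smallest adjusted p among these in limma was that of Gpc4.

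Among helpers of receptors, 0 of the 16 tested probe sets for receptor folding and processing passed. The 7 genes behind them were all positive with a median of 0.20 log2, but 5 after renewed quantile normalization and 4 with arrays centred. Their median was 0.14 log2 under each rescaling, beside 0.004 and -0.010 over all tested probe sets. The disulfide isomerase gene Pdia4 read 8.87 ± 0.29 in APOE4 and 8.38 ± 0.25 in APOE3 (SD, n = 5 each), a difference of 0.49 (SE 0.16, adjusted p = 0.56 in limma). The chaperone gene Hsp90b1 was at 0.34 (SE 0.20), with its brightest probe set at 0.02. Hspa5, which encodes the chaperone BiP, was at -0.27 (SE 0.098) by a dim probe set and at 0.24 (SE 0.23) by its brightest. Of the lipases and their regulators, 7 of 9 were positive, and 6 after either rescaling. Lmf1, needed for lipase folding, was at 0.20 (SE 0.15), Angptl6 at 0.16 (SE 0.13) and lipoprotein lipase, Lpl, at -0.45 (SE 0.42).

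Among adaptors and sorting genes, 6 of 12 were positive, and 5 after either rescaling. Pdzk1, the adaptor that holds the Scarb1 protein at the hepatocyte surface, read 9.02 ± 0.17 log2 in APOE4 and 8.79 ± 0.11 in APOE3 (SD, n = 5 each), a difference of 0.23 (SE 0.10, unadjusted p = 0.047, adjusted p = 0.62 in limma). The retromer gene Vps26a was at 0.21 (SE 0.10) and the clathrin adaptor gene Dab2 at 0.44 (SE 0.24), where the brightest Dab2 probe set was at -0.04. Of the ubiquitin genes around Mylip, 3 of 6 were positive, and 2 after either rescaling. The conjugating enzyme genes Ube2d3, Ube2d2a and Ube2d1 were at 0.25 (SE 0.17), -0.10 (SE 0.090) and -0.13 (SE 0.16). The other tested probe sets ran from -0.07 to 0.11 for Ube2d3 and from -0.05 to 0.08 for Ube2d2a.

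**Figure D5:**
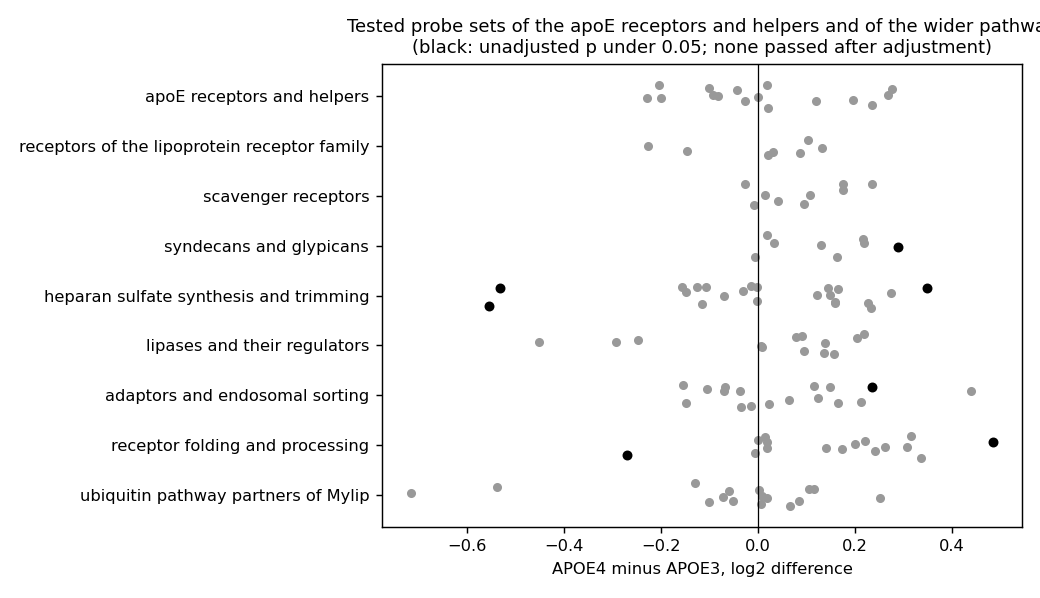
Log2 difference, APOE4 minus APOE3, of each tested probe set of the apoE receptors and helpers (top row) and of the wider pathway by role; black points had an unadjusted p under 0.05 and grey points did not. The top row has 0 black points among 16 and the other rows together 7 among 108, and none passed after adjustment.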

How the data were processed

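The submitters' processing notes name GCRMA 2.12.1 and R 2.7.1, and the deposited values are on a log2 scale. GCRMA subtracts a background estimated from each probe's sequence, aligns the arrays by quantiles and summarises the probes of a set. Any probe filter is not given in the sources used here. The table had 0 columns of other samples. Groups came from the sample titles, with 1 extract per animal per the design text. Gene names came from the platform annotation (1 symbol for 34958 probe sets, several for 932, none for 9211).

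After 64 control probe sets were left out, probe sets with a mean of at least 4 over all 10 arrays entered limma's lmFit and eBayes (limma 3.58.1, R 4.3.3) with genotype as the only term, and tests were two-sided. Benjamini-Hochberg adjustment ran over the 14732 tested probe sets, at a threshold of 0.05. A gene with several probe sets is represented by the brightest over all arrays. Named pathway genes were up to 3 per role with the smallest p, by their best probe set, and for likeness 2 genes per member. Correlations between genes and with summed cell type markers used 100000 permutations and were added after seeing the data. Alternatives were other filters, eBayes settings, array weights, rescalings, a floor at 4, 1 probe set per gene, the replicate block and leaving out each animal. With 5 arrays a genotype, differences had a median SE of 0.142 log2. The genes, lists and settings were chosen with earlier results of these data known. Promoter sequences are RefSeq's, GRCm38.p6, found for 6 of the 7 genes; motif matches were counted with Python 3.11.15.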

Additional observations from a re-analysis of the deposited data

Results flagged for a closer look

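In 3 of 40 sets of 5 livers (20 probe sets in each genotype) 1 liver lay far from the other 4 by Dixon's ratio; chance alone flags about 1 in 20 such sets, or 2 here. Among APOE4 livers, replicate 5 was low for Vldlr, at 5.45 log2 on the brightest probe set where the other 4 lay from 6.58 to 6.69, and at 4.88 on the next where the others lay from 5.85 to 6.00. These 2 probe sets read the same gene and are not independent. Without that animal the Vldlr difference on the brightest probe set was 0.47 and did not pass. Among APOE3 livers, replicate 4 read 3.94 on the Lrpap1 probe set near background, where the other 4 lay from 4.34 to 4.40.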

How the results depend on the processing

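Every alternative gave 0 of the tested Lrp1, Vldlr, Scarb1, Sdc1, Lrpap1 and Mylip probe sets past the adjusted threshold, and 0 of the wider pathway. The smallest adjusted p in limma lay between 0.449 (Lrpap1, without APOE3 replicate 1) and 0.787 over the settings. With a filter at a mean of 6, 13 of the 16 probe sets were left. Over all genes 12 probe sets passed, against 15 with no filter (45037 tested), 5 with a filter at 6 and 7 with 1 probe set per gene, where fewer probe sets were tested (9648 and 8535), and 8 to 14 with an animal left out. The replicate numbers were not used as pairs in the main fit. Deviations of livers with the same number correlated between -0.08 and 0.41 across probe sets, and 2 of 5 numbers matched best with their own. These values do not settle whether the numbers pair the livers. The replicate block gave 11 calls over all genes. It lowered the SE of the brightest Scarb1 probe set from 0.272 to 0.185 and raised that of Sdc1 from 0.138 to 0.149.

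Of 291 refitted differences 33 changed sign and 0 were called; the cause was not tested. With renewed quantile normalization and with arrays centred, the second Vldlr probe set was at -0.021 and -0.039, and the second Sdc1 probe set at -0.013 and -0.037. With array weights that Sdc1 probe set was at -0.057 and the dimmest tested Vldlr probe set at 0.090. With an animal left out, Lrp1 ranged from -0.22 to 0.026 and its dimmer probe set from -0.51 to 0.066. The Vldlr probe sets, brightest first, ranged from -0.16 to 0.50, from -0.36 to 0.23 and from -0.25 to 0.17. The second Scarb1 probe set ranged from -0.34 to 0.025, the second Sdc1 probe set from -0.10 to 0.10, the next from -0.15 to 0.042, and Mylip from -0.080 to 0.073. Differences that kept their sign ranged, with an animal left out, from -0.43 to -0.09 for the brightest Scarb1 probe set and from -0.42 to -0.12 for the dimmest, from -0.17 to -0.03 for the brightest Sdc1 probe set and from 0.09 to 0.41 for the dimmest. For Lrpap1 they ranged from 0.11 (without APOE3 replicate 3) to 0.24 for the brightest probe set, from 0.19 to 0.33 for the next and from 0.02 (without APOE4 replicate 2) to 0.23 for the dimmest. Among correlations that were not called, r ranged with an animal left out from -0.055 to 0.14 for Lrp1 and Lrpap1, from -0.14 to 0.55 for Lrp1 and Sdc1, from -0.40 to 0.055 for Vldlr and Sdc1, from -0.17 to 0.30 for Vldlr and Lrpap1 and from -0.47 to 0.14 for Sdc1 and Lrpap1.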
